A study of Mus musculus with 8 samples.

Results

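A set of 9 genes that mark the stroma of the developing gonad and the contractile cells around its tubules were followed through 4 kinds of cultured mouse cell. They are Nr2f2, Nr2f1, Pdgfra, Pdgfrb, Tcf21 and Hand2, which mark interstitial cells, steroid-producing Leydig cell progenitors or the mesenchyme they come from, and Acta2, Myh11 and Cnn1, which encode smooth muscle proteins of peritubular cells. They were chosen by name as known markers, with earlier results of these data known, and make 9 of the 46078 gene IDs in the count files. A total of 8 RNA-sequencing libraries were analysed, 2 in each of 4 groups, and all the cells were male (XY) and of the C57BL/6 strain.

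The first group was tcESCs, embryonic stem cells of the genotype XY;tesco-cfp, in which an enhancer core of Sox9 that is active in the testis drives cyan fluorescent protein (CFP). The second was tc;Sf1ESCs, of the genotype XY;tesco-cfp;Sf1, a single clone selected with G418 after the parent cells had received an expression plasmid for Sf1 (the gene Nr5a1), a nuclear receptor of the early gonad. Both lines were kept in 2iLIF medium. The third was SCLCs, Sertoli cell-like cells of the same genotype as the clone, sorted only for CFP at day 12 of a culture that passed from CHIR99021 and TTNPB to CHIR99021, BMP7 and FGF9. SCLCs thus carry both transgenes, and the CFP gate selects cells in which the tesco enhancer is active. The fourth was tod-PGCLCs, primordial germ cell-like cells of the genotype XY;Prdm1-gfp, sorted for GFP and a second surface marker (CD49f or SSEA1, which the sources give differently) at day 6 from testicular organoids in which epiblast-like cells of that line had been aggregated with cells of the tc;Sf1 differentiation culture. The Prdm1-gfp stem cells from which tod-PGCLCs were made were not analysed here, so the comparison of tod-PGCLCs with tcESCs also compares 2 lines.

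In the embryonic testis, Sertoli cells form the cords, and the space between the cords holds Leydig cells, their progenitors, vessels and fibroblast-like stroma. Peritubular myoid cells are flat contractile cells that wrap the cords and make actin, myosin and calponin of the smooth muscle type. The PDGF receptors receive growth factors that Sertoli and other cells release, and are needed for Leydig and peritubular development. Nr2f2 encodes the orphan nuclear receptor COUP-TFII and Tcf21 a basic helix-loop-helix factor of the gonadal mesenchyme, while Hand2 is best known from limb, heart and branchial mesenchyme. Pdgfra is also a long-used marker of extraembryonic (primitive) endoderm, and Acta2 is made by many kinds of cells outside smooth muscle.

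The libraries held 25411033 to 30680191 counts on genes, at which 3 counts correspond to 0.0978 to 0.118 CPM (counts scaled to 1000000 counts on genes in each library). Such limits cover counting error only. The labels were checked with Nr5a1, which had 1 and 0 counts in tcESCs, 52 and 30 in tc;Sf1ESCs, 341 and 535 in SCLCs, and 6 and 5 in tod-PGCLCs. Of the defining Sertoli genes, Fshr was at 0 in both SCLC libraries, where Amh stood at 0.567 ± 0.268 CPM against 0.761 ± 0.150 in tc;Sf1ESCs (SD, n = 2 libraries a group here and throughout), Gata4 at 423 CPM and Sox9 at 6.12. In tod-PGCLCs the germ cell gene Prdm1 stood at 186 CPM, against 8.03 in tcESCs. The SCLC libraries differed most from each other, since the chi-square between them divided by its degrees of freedom was 27.6, against 1.41 to 8.94 in the other groups. The series describes the samples as biological duplicates, and p-values measure the spread between these libraries only. These are bulk libraries, in which fewer cells of a type and less RNA per cell cannot be told apart.

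In SCLCs most of the markers stood above both kinds of embryonic stem cell, and Pdgfra had the highest level per transcript length. The quasi-likelihood test of edgeR was run over all genes with a mean count above 10, with p-values adjusted by the Benjamini-Hochberg method, and genes were called with a fold change above 2 and an adjusted p under 0.05. Tcf21 was below that count limit and was not tested. Against tc;Sf1ESCs, 8 of the 8 members tested were called higher in SCLCs, where 24.1% of the 16481 genes tested were called higher and 42.2% in either direction. Against tcESCs, 7 of 8 were called higher, where 24.3% of genes were called higher and 42.7% in either direction. Between tc;Sf1ESCs and tcESCs, 0 of 8 were called, with 1 under an unadjusted p of 0.05 (Pdgfra) and 0 called by DESeq2, where 11.7% of genes were called, 6.04% higher and 5.63% lower in tc;Sf1ESCs. Against tod-PGCLCs, 3 of 8 were called higher and 1 lower in SCLCs, where 19.5% and 18.5% of the 16707 genes tested were, 38.0% in either direction. In tod-PGCLCs against tcESCs, 5 of 8 were called higher, where 18.1% of genes were called higher and 29.4% in either direction. These comparisons share libraries and are not independent of each other. Acta2, Myh11, Cnn1 and Hand2 passed the count limit in the 6 stem cell and SCLC libraries only through their SCLC counts. Hand2 did so in all 8 libraries as well. The counts of called members are therefore descriptions and not support for a rise of the whole group. The p-values of Acta2, Myh11, Cnn1 and Hand2 for SCLCs against the stem cells are descriptions too. The same count limit was applied to the lists read below, where other genes also passed it only through SCLCs. Counts of called genes and medians of those lists are descriptions as well.

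**Figure D1:**
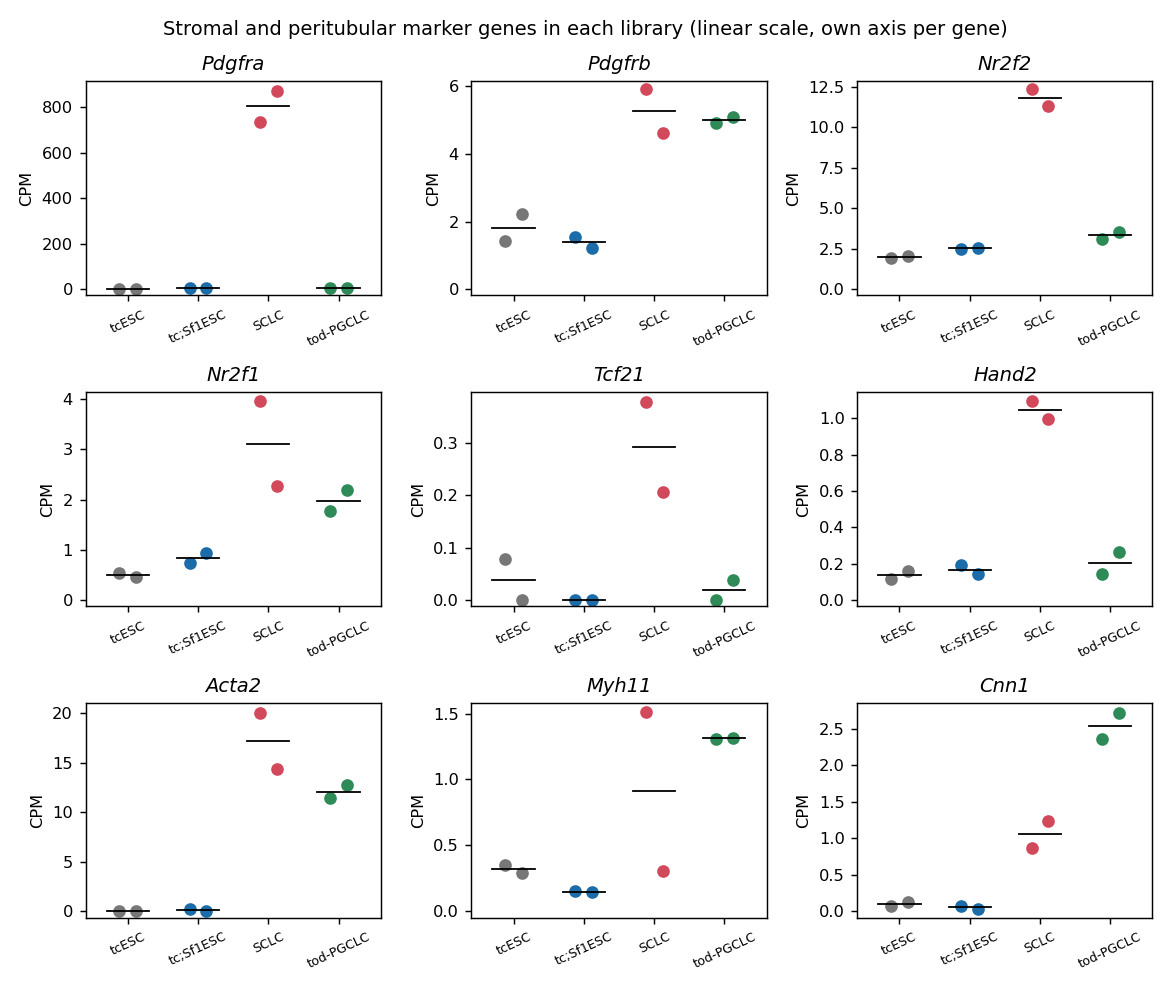
Level of each marker gene in each library, in CPM on a linear axis of its own, with 1 point per library and a line at the mean of each group. Pdgfra, Nr2f2, Tcf21 and Hand2 are highest in both SCLC libraries, while Acta2 and Pdgfrb are high in SCLCs and tod-PGCLCs and Cnn1 is highest in tod-PGCLCs.

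The 2 PDGF receptor genes differed widely in how far they moved. Pdgfra (ENSMUSG00000029231), which encodes the receptor alpha chain, lies at chr5:75152292-75198215 on the plus strand (GRCm38, GENCODE M21). It had 49 and 51 counts in tcESCs, 68 and 99 in tc;Sf1ESCs, 19491 and 25364 in SCLCs, and 90 and 80 in tod-PGCLCs. Both SCLC libraries stood far above the other 6, which lay close together. In CPM the group means were 1.80 ± 0.188 in tcESCs, 3.10 ± 0.675 in tc;Sf1ESCs, 804 ± 96.4 in SCLCs and 3.14 ± 0.181 in tod-PGCLCs. The log2 fold change of SCLCs was 8.06 ± 0.167 (SE) against tc;Sf1ESCs (edgeR adjusted p = 1.14e-07), 8.87 ± 0.177 against tcESCs (9.80e-08) and 8.13 ± 0.158 against tod-PGCLCs (1.26e-08). The 4 levels ran in the order tcESC, tc;Sf1ESC, tod-PGCLC, SCLC, and the ranges of tc;Sf1ESCs and tod-PGCLCs overlapped. The tc;Sf1ESCs stood 0.81 ± 0.219 above tcESCs on the log2 scale (edgeR adjusted p = 0.0286), which is under the 2-fold limit, and this difference was called once the first tc;Sf1ESC library was left out, at 1.02.

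The 250 bases before the RefSeq start of Pdgfra, at chr5:75152001-75152250 on GRCm38.p6, are shown because this gene had the highest level among the markers in SCLCs. They hold no match to a CArG box, the element bound by serum response factor, or to a GATA motif, which was searched as AGATAA and also as AGATAG, and with T as its first letter as TGATAA and also as TGATAG, on both strands. A match, or none, describes these letters only. Of 32851 promoter windows of the same length, 26.5% hold a GATA motif, 1.47% a strict CArG box and 7.24% a CArG box with 1 G or C in its A/T core.
Pdgfra: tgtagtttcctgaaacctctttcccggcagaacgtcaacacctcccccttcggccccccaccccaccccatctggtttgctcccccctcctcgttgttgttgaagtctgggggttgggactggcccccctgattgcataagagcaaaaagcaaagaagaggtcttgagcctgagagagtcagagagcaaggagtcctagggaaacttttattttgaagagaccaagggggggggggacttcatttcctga

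Pdgfrb (ENSMUSG00000024620), which encodes the receptor beta chain typical of pericytes and vascular smooth muscle, moved much less. It had 36 and 68 counts in tcESCs, 40 and 34 in tc;Sf1ESCs, 157 and 134 in SCLCs, and 135 and 135 in tod-PGCLCs. The SCLC and tod-PGCLC libraries stood together above the 4 stem cell libraries, which overlapped among themselves. The group means were 1.82 ± 0.565, 1.39 ± 0.222, 5.27 ± 0.932 and 4.99 ± 0.128 CPM. SCLCs were higher than tc;Sf1ESCs by 1.97 ± 0.288 on the log2 scale (edgeR adjusted p = 0.000596) and higher than tcESCs by 1.58 ± 0.278 (0.00155), and tod-PGCLCs were higher than tcESCs by 1.37 ± 0.261 (0.00176). SCLCs and tod-PGCLCs were not called different, with a log2 difference of 0.21 and a 95% interval from -0.34 to 0.76. Per transcript length, Pdgfra made up 98.5% and 99.0% of the summed TPM (counts per exon length, scaled to 1000000) of both receptors in SCLCs, and 26.7% and 24.5% in tod-PGCLCs.

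Of the 4 PDGF ligand genes, Pdgfa, whose product binds the alpha receptor, and Pdgfc fell in SCLCs against tc;Sf1ESCs, while Pdgfb and Pdgfd rose. Thus 2 of 4 were called higher and 2 lower, beside 24.1% and 18.1% of all genes tested. Against tcESCs 1 was called higher and 2 lower, beside 24.3% and 18.3%, and Pdgfb was not called. Pdgfa had 178 ± 1.01 CPM in tc;Sf1ESCs and 37.2 ± 2.30 in SCLCs, a log2 fold change of -2.21 ± 0.0753 (edgeR adjusted p = 6.64e-07). Pdgfc went from 46.4 ± 2.41 to 2.48 ± 1.03 CPM, and Pdgfd from 0.259 ± 0.0936 to 3.53 ± 0.0289. The summed level of the 4 ligands was 47.9 to 54.0 CPM in SCLCs, against 228 to 230 in tc;Sf1ESCs, so the libraries with the most Pdgfra had the least ligand transcript. In SCLCs against tod-PGCLCs 0 of the 4 ligands were called, beside 38.0% of all genes tested in either direction.

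Because Pdgfra also marks endoderm, the 6 genes of an endoderm marker list (Ttr, Afp, Apoa1, Sox17, Foxa2 and Amn) were read beside it. Their summed level was 572 and 833 CPM in the SCLC libraries, 11.3 and 22.7 in tod-PGCLCs, and 1.59 to 3.50 in the stem cells, and 6 of 6 were called higher in SCLCs against tc;Sf1ESCs, tcESCs and tod-PGCLCs, beside 24.1%, 24.3% and 19.5% of all genes tested. Ttr, Afp, Apoa1 and Foxa2 passed the count limit in the 6 stem cell and SCLC libraries only through their SCLC counts. Ttr and Apoa1 did so in all 8 libraries as well. The count of called endoderm markers is therefore a description and not support for a rise of the list. Sox17, a transcription factor of endoderm, had 4436 and 4618 counts in SCLCs against 32 and 29 in tc;Sf1ESCs. Gata6, a factor of primitive endoderm and of lateral plate mesoderm, had 4802 and 5488 counts against 32 and 45, and Gata4, used in both endoderm and gonad, had 11011 and 12551 against 171 and 184. No endoderm marker was at 0 in SCLCs, while Ttr was at 0 in all 4 stem cell libraries. The part of endoderm-like cells in the Pdgfra level was not tested.

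**Figure D2:**
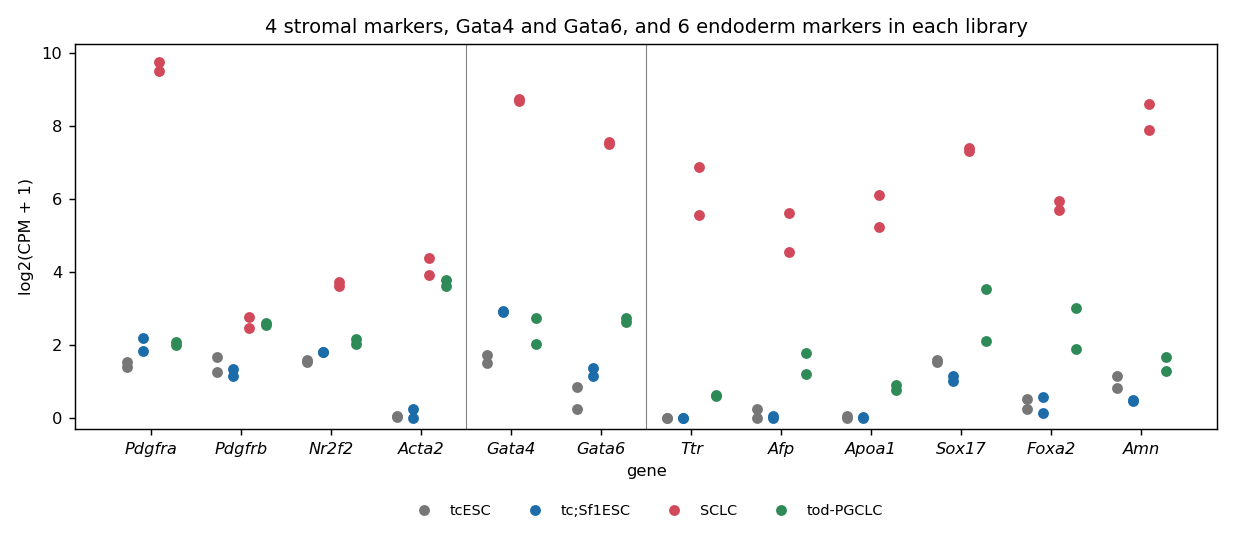
Level of 4 stromal markers, of Gata4 and Gata6, and of the 6 endoderm markers in each library, as log2(CPM + 1), with 1 point per library coloured by group. Pdgfra, Gata4, Gata6 and the endoderm markers are high in both SCLC libraries and low in the other 6, whereas Acta2 and Pdgfrb are about as high in tod-PGCLCs as in SCLCs.

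The transcription factors of gonadal mesenchyme were higher in SCLCs at low absolute levels. Nr2f2 (ENSMUSG00000030551, chr7:70351944-70366735, minus strand) had 49 and 62 counts in tcESCs, 65 and 70 in tc;Sf1ESCs, 327 and 329 in SCLCs, and 86 and 93 in tod-PGCLCs. The SCLC libraries did not overlap any other. The means were 1.97 ± 0.0654, 2.52 ± 0.0157, 11.8 ± 0.728 and 3.31 ± 0.268 CPM in that order. SCLCs stood above tc;Sf1ESCs by 2.28 ± 0.164 on the log2 scale (edgeR adjusted p = 1.61e-05), above tcESCs by 2.64 ± 0.167 (8.57e-06) and above tod-PGCLCs by 1.97 ± 0.168 (1.05e-05). The difference of tod-PGCLCs from tcESCs, 0.67 ± 0.184 on the log2 scale (edgeR adjusted p = 0.0116), was under the 2-fold limit. Its promoter window, chr7:70366747-70366996 on the minus strand (GRCm38.p6, RefSeq), is shown as that of the mesenchymal factor with the highest level in SCLCs and holds a GATA motif, read on the opposite strand and in capitals below, at 118 to 113 bases before the start.
Nr2f2: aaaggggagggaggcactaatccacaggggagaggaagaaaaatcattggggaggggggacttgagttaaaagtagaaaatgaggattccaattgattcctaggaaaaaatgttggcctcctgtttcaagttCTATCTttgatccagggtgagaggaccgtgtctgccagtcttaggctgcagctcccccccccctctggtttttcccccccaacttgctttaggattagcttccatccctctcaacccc

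Nr2f1 (ENSMUSG00000069171), which encodes COUP-TFI, the closest relative of the Nr2f2 product, was raised in both differentiated groups. It had 14 and 14 counts in tcESCs, 19 and 26 in tc;Sf1ESCs, 105 and 66 in SCLCs, and 49 and 58 in tod-PGCLCs, or 0.504 ± 0.0669, 0.836 ± 0.146, 3.12 ± 1.20 and 1.98 ± 0.286 CPM. The SCLC pair was spread wider than any other. SCLCs were higher than tc;Sf1ESCs by 1.93 ± 0.355 on the log2 scale (edgeR adjusted p = 0.00194) and than tcESCs by 2.69 ± 0.380 (0.000507), and tod-PGCLCs were higher than tcESCs by 1.90 ± 0.378 (0.00223). The difference between SCLCs and tod-PGCLCs, 0.78 ± 0.311 on the log2 scale (edgeR adjusted p = 0.0498), was under the 2-fold limit and was called at 1.14 when the second SCLC library was left out. The first SCLC library stood at 3.96 CPM but the second at 2.27, beside 1.78 and 2.18 in the tod-PGCLC pair. Nr2f6, a more distant relative, stood at 11.3 ± 0.784 CPM in SCLCs and 12.1 ± 1.57 in tod-PGCLCs. Per length, Nr2f2 made up 24.7% and 22.9% of the summed TPM of the 3 genes in the SCLC libraries and 7.69% to 10.7% in the other 6.

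Tcf21 (ENSMUSG00000045680) was close to the limit of detection everywhere. It had 2 and 0 counts in tcESCs, 0 and 0 in tc;Sf1ESCs, 10 and 6 in SCLCs, and 0 and 1 in tod-PGCLCs. The 2 SCLC libraries were the only ones above 3 counts. Against tc;Sf1ESCs, their level was at least 2.60-fold higher, taking 3 counts per library as the floor, and it was 8.07 times that of tcESCs with a 95% counting interval from 1.90 to 72.4. When every gene with a count was tested, Tcf21 was called higher in SCLCs than in tc;Sf1ESCs (edgeR adjusted p = 0.00178), tcESCs (0.0286) and tod-PGCLCs (0.0120). That setting called 8601 genes in SCLCs against tc;Sf1ESCs, beside 6955 with the count limit. It also lowered the edgeR adjusted p of Nr2f2 there from 1.61e-05 to 2.27e-22. The Tcf21 calls, on 10 and 6 SCLC counts, are therefore descriptions only.

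Hand2 (ENSMUSG00000038193) had 29 and 29 counts in SCLCs against 3 to 7 in each of the other 6 libraries. No other library came near the SCLC pair, but the mean level there was 1.05 ± 0.0689 CPM. SCLCs were higher than tc;Sf1ESCs by 2.65 ± 0.395 on the log2 scale (edgeR adjusted p = 0.000661), than tcESCs by 2.90 ± 0.403 (0.000462) and than tod-PGCLCs by 2.47 ± 0.402 (0.000559). Hand2 passed the count limit only through its SCLC counts in both fits, so these p-values are descriptions only. The difference of tod-PGCLCs from tcESCs was 0.43, with a 95% interval from -0.83 to 1.69. Its relative Hand1, a factor of extraembryonic and lateral mesoderm, was called higher in SCLCs than in tod-PGCLCs as well, at 3.58 ± 0.959 against 1.65 ± 0.277 CPM. Msc, the relative of Tcf21, was lower in SCLCs, at 0.503 ± 0.0177 CPM against 6.69 ± 0.298 in tc;Sf1ESCs.

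The contractile genes stood above tcESCs in tod-PGCLCs, where 3 of 3 were called higher beside 18.1% of all genes tested, as well as in SCLCs, where 2 of 3 were beside 24.3%. For SCLCs that count is a description only, since Acta2 and Cnn1 passed the count limit there through their SCLC counts. In the same comparison of tod-PGCLCs with tcESCs, 4 of the 8 Sertoli markers tested (Sox9, Wt1, Nr5a1 and Aard, named after their values were seen) and 4 of the 6 endoderm markers were also called higher. Wt1, a factor of the early gonad and kidney, stood at 11.5 ± 0.724 CPM in tod-PGCLCs against 0.605 ± 0.0205 in tcESCs, and the summed Sertoli markers at 61.9 to 65.4 CPM against 11.6 to 13.2. Aard alone made up 45.4 and 37.8 CPM of that sum in tod-PGCLCs, and Amh, Dhh, Gata4 and Sox8 were not called. The part of somatic cells in the contractile levels of tod-PGCLCs was not tested. Acta2 (ENSMUSG00000035783, chr19:34241090-34255590, minus strand), which encodes smooth muscle alpha-actin, had 1 and 1 counts in tcESCs, 5 and 0 in tc;Sf1ESCs, 530 and 417 in SCLCs, and 314 and 339 in tod-PGCLCs. The 4 libraries of differentiated cells stood apart from the 4 of stem cells. The means were 17.2 ± 4.01 CPM in SCLCs and 12.1 ± 0.963 in tod-PGCLCs. SCLCs were higher than tc;Sf1ESCs by 7.50 ± 0.530 on the log2 scale (edgeR adjusted p = 1.49e-05), although the first tc;Sf1ESC library held every Acta2 count of that group. Leaving out 1 library at a time gave 6.48 without the second tc;Sf1ESC library to 11.9 without the first, and the latter sets SCLCs against a library at 0 counts, so it depends on the prior count and is no bound. Against tcESCs, with 2 counts in all, the ratio of summed counts per summed total was 478 for SCLCs, with a 95% counting interval from 132 to 3951, and 339 for tod-PGCLCs, from 93.3 to 2801. Both of these comparisons were called (edgeR adjusted p = 1.20e-05 and 5.83e-06). SCLCs and tod-PGCLCs were not called different in Acta2, with a log2 difference of 0.64 ± 0.267 (edgeR adjusted p = 0.0593) and a 95% interval from 0.03 to 1.25. Per length, Acta2 was 1.01% and 0.782% of the summed TPM of the 6 actin genes in SCLCs and 0.625% and 0.685% in tod-PGCLCs, since the cytoplasmic actins Actb and Actg1 made up most of it.

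The windows of Acta2, chr19:34255374-34255623 on the minus strand, and Cnn1, chr9:22099003-22099252 on the plus strand (GRCm38.p6, RefSeq), are shown because the CArG box is the textbook element of smooth muscle promoters. The Acta2 window holds 2 CArG boxes with 1 G or C in the core, in capitals, at 84 to 75 and 34 to 25 bases before the start, and the Cnn1 window holds none.
Acta2: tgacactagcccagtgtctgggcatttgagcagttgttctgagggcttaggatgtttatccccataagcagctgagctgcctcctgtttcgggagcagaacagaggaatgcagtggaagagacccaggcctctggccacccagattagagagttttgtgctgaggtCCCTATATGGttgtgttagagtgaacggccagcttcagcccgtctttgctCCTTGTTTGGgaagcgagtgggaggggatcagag
Cnn1: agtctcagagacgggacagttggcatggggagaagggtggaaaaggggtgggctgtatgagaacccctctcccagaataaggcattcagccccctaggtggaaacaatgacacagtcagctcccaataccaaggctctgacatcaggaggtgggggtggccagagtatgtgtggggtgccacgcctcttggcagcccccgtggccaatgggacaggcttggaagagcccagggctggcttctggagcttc

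Cnn1 (ENSMUSG00000001349), which encodes calponin of differentiated smooth muscle, was the 1 marker called lower in SCLCs than in tod-PGCLCs. It had 2 and 4 counts in tcESCs, 2 and 1 in tc;Sf1ESCs, 23 and 36 in SCLCs, and 65 and 72 in tod-PGCLCs. The SCLC and tod-PGCLC libraries did not overlap, at means of 1.05 ± 0.261 and 2.54 ± 0.248 CPM. The log2 difference of SCLCs from tod-PGCLCs was -1.13 ± 0.296 (edgeR adjusted p = 0.00810), but with DESeq2 the call was lost at the same size of -1.13 (adjusted p = 0.0813) and fell under the 2-fold limit without the first SCLC library, at -0.89. Against tc;Sf1ESCs, with 3 counts in all, the ratio was 19.0 for SCLCs with a counting interval from 6.18 to 94.6, and SCLCs were higher than tcESCs by 3.32 ± 0.484 on the log2 scale (edgeR adjusted p = 0.000598). In tod-PGCLCs it was higher than in tcESCs by 4.44 ± 0.420 on the log2 scale (edgeR adjusted p = 3.41e-05). Cnn2 and Cnn3, the calponins of non-muscle cells, made up nearly all of the family, and the share of Cnn1 in the summed TPM was at most 0.790%.

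Myh11 (ENSMUSG00000018830), the smooth muscle myosin heavy chain, was the least settled of the contractile markers. It had 9 and 9 counts in tcESCs, 4 and 4 in tc;Sf1ESCs, 40 and 9 in SCLCs, and 36 and 35 in tod-PGCLCs. In the second SCLC library the gene stood no higher than in tcESCs. SCLCs were called higher than tc;Sf1ESCs, by 2.60 ± 0.835 on the log2 scale (edgeR adjusted p = 0.0250), but not than tcESCs, at 1.53 ± 0.724 (0.0941). The first call was lost without any 1 of the 4 stem cell libraries, at log2 fold changes from 2.55 to 2.60 and adjusted p from 0.0582 to 0.0988 in the same test. Without the second SCLC library it held, at 3.34 (edgeR adjusted p = 6.53e-07), and without the first Myh11 fell under the count limit. In tod-PGCLCs Myh11 stood at 1.31 ± 0.00746 CPM and was higher than in tcESCs by 1.94 ± 0.639 (edgeR adjusted p = 0.0263), which was also lost without any 1 of the libraries of that comparison, at log2 fold changes from 1.76 to 2.03 and adjusted p from 0.0793 to 0.148. The non-muscle myosins Myh9 and Myh10 stood at 1543 ± 21.4 and 118 ± 8.14 CPM in SCLCs, and Myh11 was at most 0.211% of the summed TPM of the 4 myosin genes in any library.

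**Figure D3:**
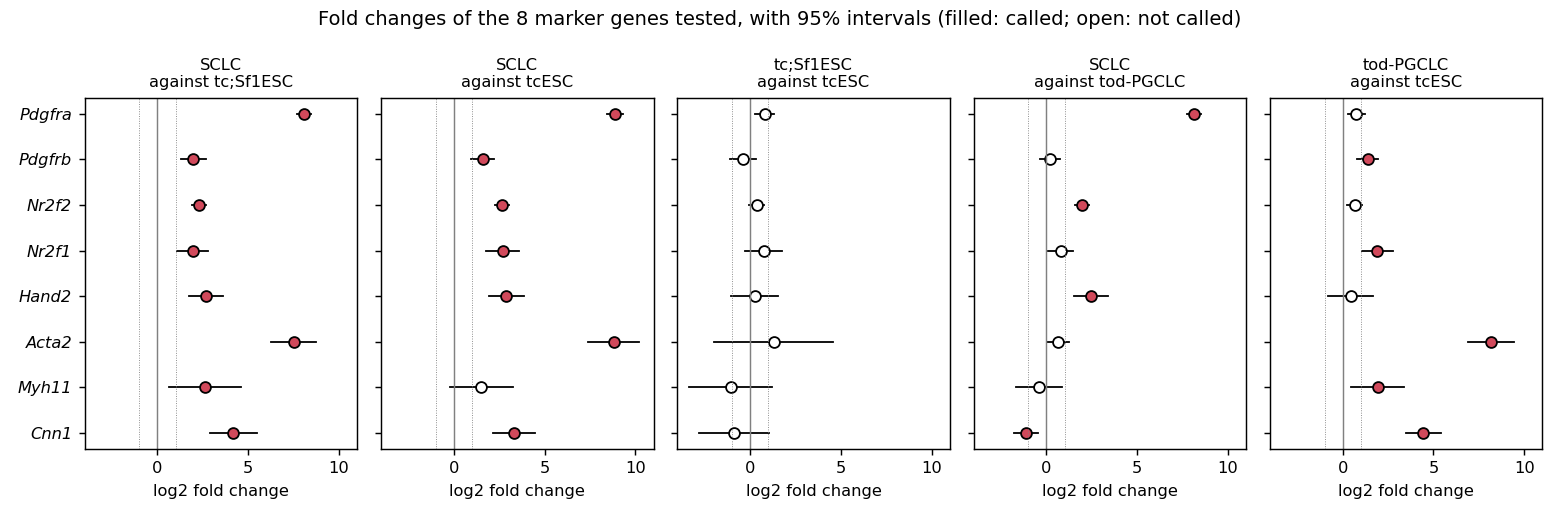
log2 fold changes of the 8 marker genes tested in 5 comparisons, with points at the estimate, bars for 95% intervals from edgeR, filled points for called genes and open points for genes not called. Pdgfra stands at 8.06 to 8.87 in the comparisons of SCLCs, the contractile genes stand above 0 in tod-PGCLCs against tcESCs, and no marker is filled between the stem cell lines.

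Other genes of the smooth muscle programme were read from a list of 20. Against tc;Sf1ESCs, 11 of the 17 tested were called higher in SCLCs and 0 lower, beside 24.1% and 18.1% of all genes tested, with a median log2 fold change of 1.67 beside 0.02 over all of them. Against tcESCs, 8 were higher, 1 lower (Cald1) and 8 not called, beside 24.3% higher and 18.3% lower, with a median of 1.13 beside 0.05. In tc;Sf1ESCs against tcESCs the median of the list was -0.71 beside 0.00. There 2 were called lower (Myl9 and Mylk, named after their values were seen) and 0 higher, beside 5.63% and 6.04% of all genes tested. Tpm1, which encodes a tropomyosin that lies along the actin filament, went from 38.4 ± 0.399 to 505 ± 64.7 CPM, and Srf, the serum response factor, from 41.8 ± 1.05 to 125 ± 31.3. Actn1, an actinin of stress fibres, stood at 412 ± 6.36 and 403 ± 1.56 CPM and was not called. In SCLCs against tod-PGCLCs 2 of 17 were higher (Myl9 and Tpm1), 3 lower (Des, Synpo2 and Aoc3) and 12 not called, with a median of 0.11 beside -0.01. These shares were no larger than those over all genes tested, of which 19.5% were higher and 18.5% lower, and the genes were named after their values were seen. Myocd, which encodes the cofactor of Srf in smooth muscle and was also named after its values were seen, had 25 and 17 counts in SCLCs, 6 and 3 in tod-PGCLCs and no more than 2 in any stem cell library, and was below the count limit. Markers of heart and skeletal muscle were read beside these. Of 5 tested, 2 were called higher in SCLCs against tc;Sf1ESCs, beside 24.1% of all genes tested. Their summed level was 25.6 to 40.8 CPM in SCLCs and 20.7 to 20.8 in tc;Sf1ESCs. In tcESCs it was 24.2 to 28.4 CPM, which overlapped the SCLC range. Myod1, which commits cells to skeletal muscle, was at 0 in 7 of the 8 libraries.

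**Figure D4:**
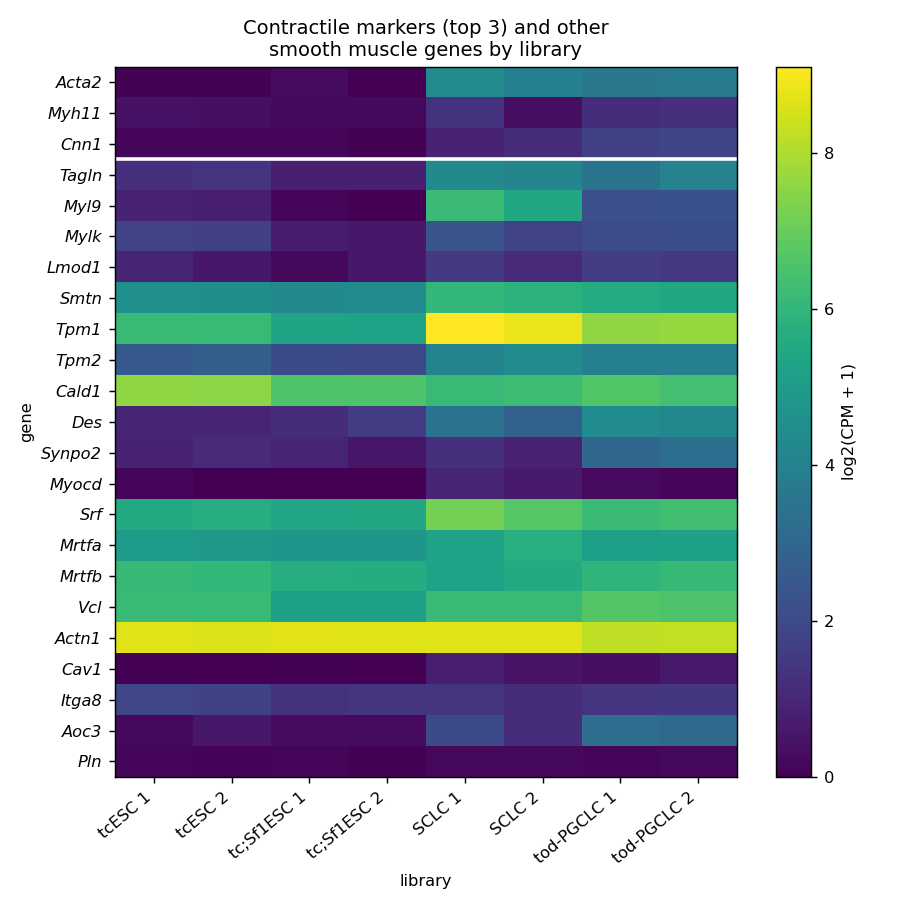
Level of the 3 contractile markers (above the white line) and of the 20 other smooth muscle genes in each of the 8 libraries, as log2(CPM + 1) on the colour scale. Tpm1, Srf and Acta2 are brighter in SCLCs than in the stem cells, Des, Synpo2 and Aoc3 are brightest in tod-PGCLCs, and Actn1 is bright in all 8 libraries.

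Of a list of fibroblast and matrix genes, most of those tested were called higher in each differentiated group. In the 6 stem cell and SCLC libraries, Dcn, Lum, Postn, Prrx1, Fap and Col3a1 passed the count limit only through SCLC counts. All but Col3a1 were named after their values were seen. For SCLCs the counts of called genes and the medians are thus descriptions only. Against tc;Sf1ESCs, 10 of 15 tested were called higher in SCLCs and 1 lower, beside 24.1% and 18.1% of all genes tested, with a median log2 fold change of 3.09 beside 0.02 over all of them. Against tcESCs, 9 of 15 were higher and 1 lower, beside 24.3% and 18.3%, with a median of 5.49 beside 0.05, or 4.155 with Fap, at 0 counts in tcESCs, set to its bound. Col1a1 and Col3a1, the fibrillar collagens of connective tissue, stood at 144 ± 81.6 and 111 ± 46.7 CPM in SCLCs against 1.27 ± 0.00579 and 0.0928 ± 0.0221, and both SCLC libraries were above every other. Vim, the intermediate filament of mesenchymal cells, fell by 3.31 on the log2 scale, from 519 ± 4.59 to 50.6 ± 7.84 CPM (edgeR adjusted p = 5.92e-07). It stood at 142 ± 5.62 CPM in tcESCs, which tc;Sf1ESCs exceeded by 1.88 ± 0.102 on the log2 scale, so against tcESCs Vim in SCLCs fell by 1.43. In tod-PGCLCs against tcESCs 10 of 16 were higher, beside 18.1% of all genes tested, 5 were not called and 1 was lower (Fbn1, a microfibril gene, at 4.61 ± 0.509 against 9.49 ± 0.328 CPM), with a median of 2.11 beside 0.03 over all genes tested.

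Genes of interstitial cells and Leydig progenitors were called in both directions. Of 18 tested against tc;Sf1ESCs, 5 were called higher in SCLCs, 7 lower and 6 not called, with a median of -0.04, where 24.1% of all genes tested were called higher and 18.1% lower. The 5 that were higher were Maf, Wnt5a, Cxcl12, Dlk1 and Igf1, named after their values were seen. Those that were lower included Gli2, Jag1 and Notch3. Maf, Wnt5a and Igf1 passed the count limit in the 6 stem cell and SCLC libraries only through their SCLC counts. Dlk1, which encodes a membrane protein related to Notch ligands, rose by 6.85 ± 0.336 on the log2 scale, from 0.282 ± 0.0922 to 31.8 ± 9.52 CPM (edgeR adjusted p = 2.68e-06), and against tcESCs, at 0.958 ± 0.0745 CPM, by 5.10 ± 0.281. Igf1, the insulin-like growth factor gene, stood at 23.1 ± 9.18 CPM in SCLCs and had 1 and 2 counts in tc;Sf1ESCs. Gli2, a transcription factor of hedgehog signalling, which Leydig progenitors receive, fell by 4.15 on the log2 scale, from 46.9 ± 1.03 to 2.58 ± 1.26 CPM (edgeR adjusted p = 4.85e-06). Jag1, a Notch ligand, fell by 3.99, and Notch3, a Notch receptor of mural cells, by 1.11. Ptch1, the hedgehog receptor, stood at 79.7 ± 4.13 CPM in tc;Sf1ESCs and 73.1 ± 18.8 in SCLCs, and at 256 ± 27.6 in tod-PGCLCs. In tod-PGCLCs against tcESCs 7 of 17 genes of the list were called higher and 1 lower, beside 18.1% and 11.2% of all genes tested, with a median of 0.70 beside 0.03. Of 12 genes of lateral plate and splanchnic mesoderm, 6 were called higher in SCLCs than in tc;Sf1ESCs and 5 lower. The shares of all genes tested were 24.1% and 18.1%. Tbx3 was lower, at 106 ± 14.7 against 293 ± 1.88 CPM. Gata6 is in that list and rose together with the endoderm markers given above.

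**Figure D5:**
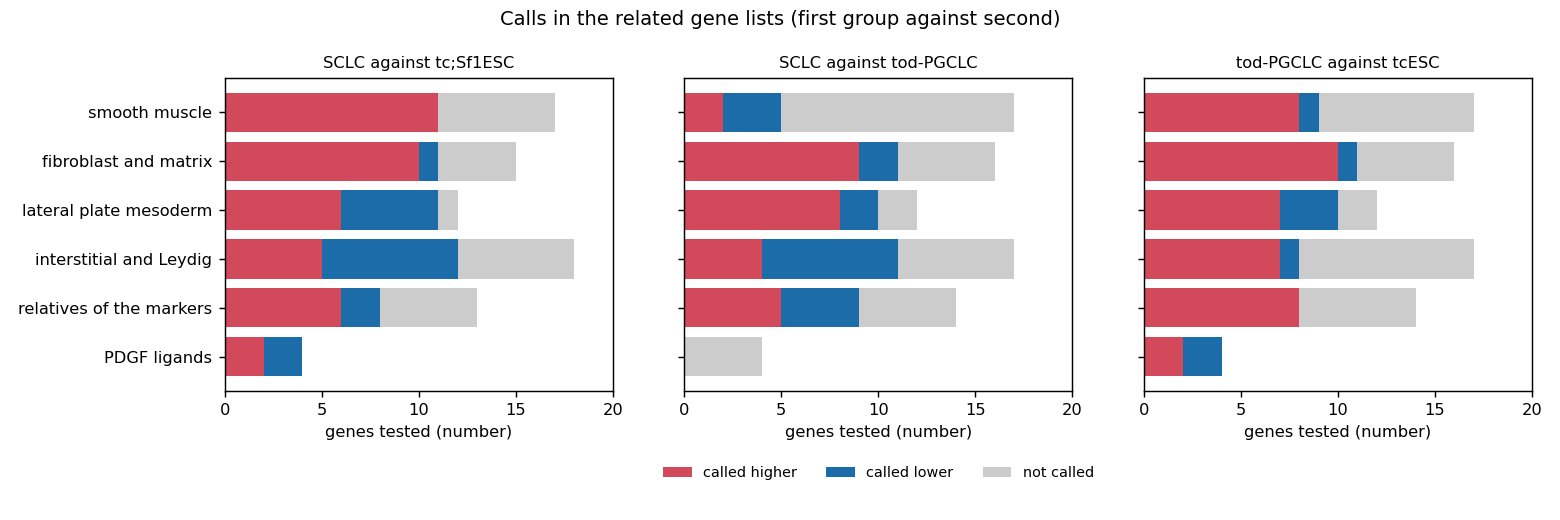
Number of genes called higher, called lower and not called in 6 lists related to the markers, in 3 comparisons, as stacked bars over the genes tested. The smooth muscle list has 11 genes higher and 0 lower in SCLCs against tc;Sf1ESCs, while the interstitial and Leydig list has 5 higher and 7 lower.

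The markers did not share 1 pattern across the libraries. Over the 8 libraries, which fall into 4 groups of 2, Nr2f2 followed Pdgfra with a Pearson r of 0.981 on log2(CPM + 1) and Pdgfrb followed Acta2 with 0.973, whereas Pdgfra and Pdgfrb had 0.597. The genes most like each marker with at least 1 CPM, among 14291 compared, were Fam114a1 and Cfl2 for Nr2f2 (0.999 and 0.998), C2 and Akr1c12 for Pdgfra, Rabac1 and Tsga10 for Pdgfrb, Gbp7 and Gbp3 for Acta2 and Dkk3 and Senp6 for Nr2f1. Such values are common here, since 901 genes stood above 0.95 with Pdgfra and 158 with Nr2f1. Compared per length within SCLCs, the mean level ran from 305 TPM for Pdgfra and 29.7 for Acta2 to 5.21 for Nr2f2, 3.65 for Pdgfrb, 2.32 for Nr2f1, 1.69 for Hand2, 1.46 for Cnn1, 0.472 for Tcf21 and 0.454 for Myh11.

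Some transcripts overlap the markers on the opposite strand, and the strand setting of the counting is not given in the sources used here. The antisense gene of Nr2f1, A830082K12Rik, reached 16 and 8 counts in the SCLC pair, and no more than 4 elsewhere. Hand2os1 had 9 and 1 counts in SCLCs, and the antisense transcript of Nr2f2, B130024G19Rik, had 8 and 3. Their counts were low beside those of Nr2f2 and Nr2f1, and for Hand2 they were 9 and 1 against 29 and 29.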

How the data were processed

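RNA of tcESCs, tc;Sf1ESCs, SCLCs and tod-PGCLCs, 2 libraries each, was sequenced as poly-A selected, strand-specific paired-end libraries. Per the labels and methods, the authors trimmed reads with Trim Galore, aligned them to GRCm38 with STAR 2.4.0, and their processing notes also name Picard, HTSeq and DESeq2. The deposited values are raw counts per Ensembl gene, without normalization. The annotation release and the strand setting of the counting are not given in the sources used here. The rows that name no gene were left out, among them reads on no gene (6.45% to 8.32% of each file), ambiguous reads (2.97% to 3.14%) and reads aligned more than once (20.5% to 27.5%), so near-identical genes can be undercounted.

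Of 46078 gene IDs, 45229 were named and placed with GENCODE M21, whose exon lengths gave TPM. Totals on genes ran from 25411033 to 30680191. The software was edgeR 4.0.16, DESeq2 1.42.0 and limma 3.58.1 under R 4.3.3, and pandas 2.3.3, scipy 1.17.1 and matplotlib 3.10.9 under Python 3.11.15. After TMM normalization, the quasi-likelihood test of edgeR was applied to genes with a mean count above 10, and p-values were adjusted by the Benjamini-Hochberg method over all genes tested, in 1 fit of the 6 stem cell and SCLC libraries or, for tod-PGCLCs, of all 8. The alternatives were RLE size factors, no count limit, DESeq2, the replicate number as a block, other libraries in the fit, and each library left out. Low counts were compared with 3 counts as a floor and exact 95% intervals. All 9 markers, their relatives and the PDGF ligands are named, and from each other list the 3 called and 3 uncalled genes with the highest mean CPM, from which examples were taken. Defining markers that check a cell type are named too, and other genes named after their values were seen are marked. The markers and lists were chosen with earlier results of these data known. Promoter windows, from RefSeq on GRCm38.p6, were matched for 7 of 9 markers.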

Additional observations from a re-analysis of the deposited data

How the results depend on the processing

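Across the alternatives, Pdgfra, Nr2f2, Nr2f1, Pdgfrb and Acta2 kept their calls in SCLCs against both stem cell lines. Leaving out 1 library at a time gave 5 to 7 members called in SCLCs against tc;Sf1ESCs. The 5 came without SCLC replicate 1, where Myh11, Cnn1 and Hand2 fell under the count limit. It gave 0 to 1 members and 1119 to 2304 genes called between tc;Sf1ESCs and tcESCs. Signs turned in 3 uncalled values: Acta2 in tc;Sf1ESCs against tcESCs was -3.15 on the log2 scale without tc;Sf1ESC replicate 1 (up to 2.31 with other libraries left out), Myh11 in SCLCs against tod-PGCLCs was 0.34 without SCLC replicate 2, and Hand2 in tod-PGCLCs against tcESCs was -0.0333 without tod-PGCLC replicate 2 (up to 0.80 with others left out). Myh11 in SCLCs against tcESCs was called without the count limit, at 1.51, and without SCLC replicate 2, at 2.27, and against tod-PGCLCs without SCLC replicate 1, at -1.93. The cause was not tested. At these depths Tcf21 held at most 10 counts in any library.

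Same-numbered libraries share only a number, since the correlations of their deviations ran from -0.0342 to 0.0801. With the replicate number as a block, 6958 genes and 8 members were called in SCLCs against tc;Sf1ESCs, 7024 and 7 against tcESCs, 1916 and 0 in tc;Sf1ESCs against tcESCs, 6313 and 4 in SCLCs against tod-PGCLCs, and 4893 and 5 in tod-PGCLCs against tcESCs.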
